A study of Mus musculus with 6 samples.

Results

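The genes described here are 5 inhibitors of cyclin-dependent kinases (CDKs), Cdkn1a, Cdkn1b, Cdkn2a, Cdkn2b and Cdkn2c, and 4 more target genes of the tumour suppressor p53, Sesn2, Pmaip1, Mdm2 and Ccng1. They were chosen by name, and all 9 were found among the 16455 genes of the deposited count table. Their RNA was sequenced from primary osteoblasts of C57/B6 mice aged 3 days, grown in culture for 3 days, with 3 wild-type (WT) libraries and 3 Tet KO libraries (TCKO), called WT_1 to WT_3 and TCKO_1 to TCKO_3. In the TCKO mice Prx1-Cre, which is active in limb and skull mesenchyme, deleted floxed alleles of Tet1, Tet2 and Tet3, so cells of other origin in these cultures keep their Tet genes. The sources used here do not say whether the WT mice carried Cre or floxed alleles, nor whether a library came from 1 pup or from several, so the p-values measure the spread between these libraries, which may be technical.

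The CDK inhibitors hold back the entry into DNA replication. Proteins of the INK4 family (p16Ink4a from Cdkn2a, p15Ink4b from Cdkn2b and p18Ink4c from Cdkn2c) bind CDK4 and CDK6 and block their pairing with D-type cyclins, whereas p21 (Cdkn1a) and p27 (Cdkn1b) of the CIP/KIP family bind cyclin-CDK complexes, above all those of CDK2. The transcription factor p53, encoded in the mouse by Trp53, is activated by DNA damage and other stress and switches on Cdkn1a for arrest, Pmaip1 for apoptosis, Sesn2 for the restraint of growth signalling, Ccng1, and Mdm2, whose product marks p53 itself for degradation. Cdkn2a also encodes p19Arf in another reading frame, which inhibits the MDM2 protein and so connects both groups.

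Promoter sequences show which of these genes carry a p53 consensus next to their start. The windows were those of RefSeq on build GRCm38.p6, from 250 bases before to 50 bases after each annotated start, and 8 of the 9 genes matched 11 windows. Pmaip1 had no window here and was not searched. Each window was searched for the p53 consensus, a tandem pair of elements of 20 bases in all that reads the same on both strands. A match with at most 1 mismatch was found for 2 genes, Cdkn1a and Ccng1, and in 0.0883% of all 32851 mouse windows, while the other windows of these genes differed from the consensus at 3 or more positions. The 250 bases before the start are shown for both, 5′ to 3′ on the strand of the gene, with the p53 match in capitals. For Cdkn2b, which had the largest fold change of the 9 genes, the same stretch is shown with TGACGTCA, the motif of the CREB and ATF factors, in capitals. These letters were looked for after the sequence had been seen, read the same on both strands, and occur in 1.79% of all windows.
Cdkn1a, upstream start, chr17:29090729-29090978, plus strand: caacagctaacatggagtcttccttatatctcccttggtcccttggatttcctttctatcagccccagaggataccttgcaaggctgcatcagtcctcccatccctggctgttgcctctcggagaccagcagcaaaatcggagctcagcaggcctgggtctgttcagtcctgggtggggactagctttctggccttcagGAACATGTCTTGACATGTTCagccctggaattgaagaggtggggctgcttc
Ccng1, chr11:40755287-40755536, minus strand: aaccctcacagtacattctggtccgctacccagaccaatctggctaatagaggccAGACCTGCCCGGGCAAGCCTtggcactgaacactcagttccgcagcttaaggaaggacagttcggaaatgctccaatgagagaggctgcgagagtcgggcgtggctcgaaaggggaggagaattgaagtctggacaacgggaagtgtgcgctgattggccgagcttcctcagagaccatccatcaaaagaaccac
Cdkn2b, chr4:89311033-89311282, minus strand: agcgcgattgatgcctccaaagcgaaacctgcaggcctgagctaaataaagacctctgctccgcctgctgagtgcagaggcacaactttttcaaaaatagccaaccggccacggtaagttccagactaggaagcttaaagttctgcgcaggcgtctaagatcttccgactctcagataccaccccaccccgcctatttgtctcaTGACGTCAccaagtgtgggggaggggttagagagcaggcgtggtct
The match of Cdkn1a lay 51 to 32 bases before its upstream start, and that of Ccng1 195 to 176 bases before its start. A match describes these letters and not the binding of a factor. Sequence outside the windows, and pairs of elements set apart by a gap, were not searched, so p53 sites elsewhere in these genes are not covered. TET enzymes act on methylated CpG, and the number of CpG dinucleotides in a window ranged from 2 at the upstream start of Cdkn1a to 45 at the upstream start of Cdkn2a, from which p19Arf is transcribed. Mdm2 had 35, Cdkn1b 30, Cdkn2b 18 and Ccng1 14, and the median of all windows was 7. DNA methylation was not analysed here.

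To compare levels between genes, CPM (counts per 1000000 reads, with library sizes scaled by the TMM factors of edgeR) were divided by exon length. In WT, Cdkn1a stood at 303 CPM per kb and Ccng1 at 288, and their ranges over the libraries overlapped. Mdm2 followed at 62.7, Cdkn2b at 39.9, Sesn2 at 33.5 and Pmaip1 at 14.0 CPM per kb, and Cdkn1b (7.78), Cdkn2c (7.19) and Cdkn2a (4.56) were lowest. Besides Cdkn1a and Ccng1, the WT ranges overlapped only for the neighbours Cdkn2b and Sesn2. In TCKO the genes at both ends kept this order, but Cdkn2b (18.3 CPM per kb) stood below Sesn2 (25.6) and Pmaip1 (22.5), and its range overlapped that of Pmaip1.

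**Figure D1:**
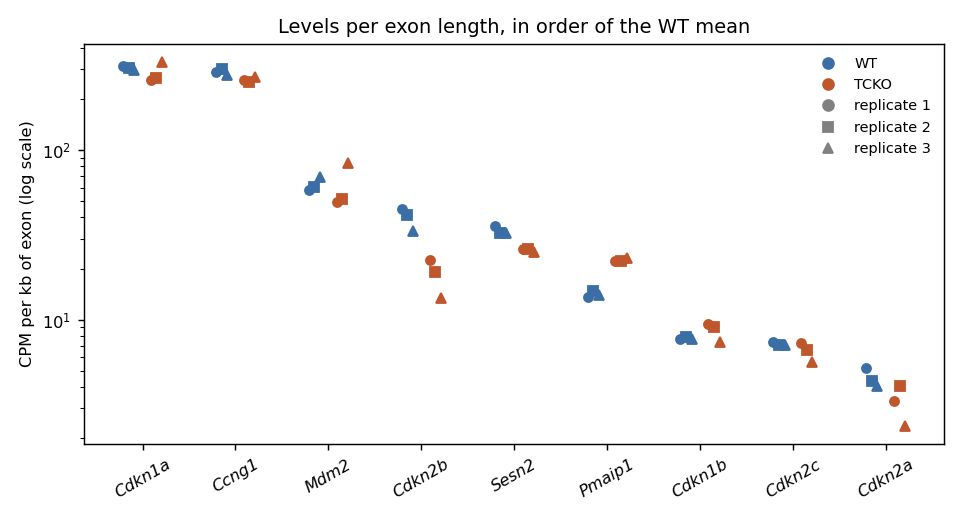
Level of each gene per exon length (CPM per kb, log axis) in the 3 WT and 3 TCKO libraries, 1 point a library, in order of the WT mean. Cdkn1a and Ccng1 are highest and Cdkn2a is lowest. The mean of Cdkn2b moves from above that of Sesn2 in WT (39.9 CPM per kb) to below it in TCKO (18.3). In WT the points of both genes overlap.

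Of the 9 genes, 1 was higher and 2 were lower in TCKO at an edgeR adjusted p under 0.05, and 6 did not pass. Among all 13630 genes tested 9.44% were higher and 8.9% lower by this rule (18.3% in all), so that with 9 genes these counts are not a result about the group. Pmaip1 rose, and Cdkn2b and Sesn2 fell. With a fold above 2 as a further condition only Cdkn2b passed, against 6.07% of all genes (3.01% higher and 3.06% lower). The levels of both genotypes did not overlap for Pmaip1, where TCKO was above, and for Cdkn2a, Cdkn2b, Sesn2 and Ccng1, where it was below. Over all genes 38.2% did not overlap, 19.3% with TCKO above and 18.9% with TCKO below. The median log2 fold change (TCKO over WT) of the 9 genes was -0.14, against -0.0011 over all genes tested.

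**Figure D2:**
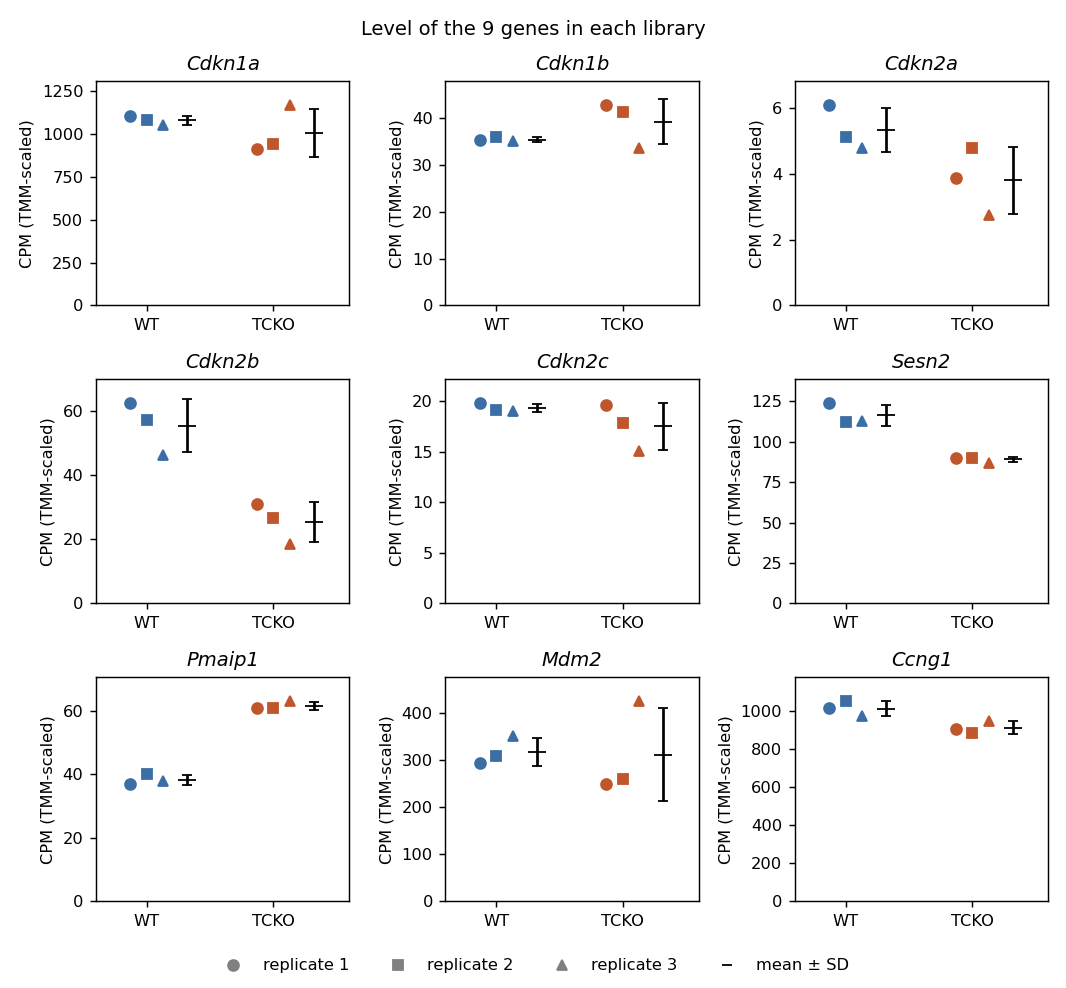
Level of each of the 9 genes (TMM-scaled CPM, axes from 0) in every library, with the mean and SD over 3 libraries. The points of WT and TCKO lie far apart for Pmaip1 (means 38.3 and 61.6 CPM), Sesn2 and Cdkn2b, while TCKO_3 stands above all WT points for Cdkn1a and Mdm2.

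Cdkn2b, an INK4 gene known as a target of TGF-beta signalling (ENSMUSG00000073802.5, chr4:89306299-89311039, minus strand), had 62.5, 57.3 and 46.4 CPM in WT and 31.0, 26.7 and 18.6 CPM in TCKO, from 168 to 604 reads a library. Every TCKO library lay below every WT library, and replicate 3 was the lowest of each genotype. The gene was 2.18-fold lower in TCKO (log2 fold change -1.12 ± 0.19, SE, n = 3 per genotype, edgeR adjusted p = 0.00789). The log2 difference was -1.05 within replicates 1 and 2 (TCKO_1 and TCKO_2 against WT_1 and WT_2) and -1.31 within replicate 3 (TCKO_3 against WT_3). The call was kept with each library left out in turn (edgeR adjusted p = 0.00279 to 0.0395) and lost where replicates 1 and 2 of a genotype were summed into 1 library (0.0936).

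Cdkn2a lies 11646 bases from Cdkn2b on the same strand (ENSMUSG00000044303.6, chr4:89274471-89294653) and was the least abundant of the 9 genes, with 53, 54 and 40 reads in WT and 35, 39 and 25 reads in TCKO. In CPM these were 6.10, 5.13 and 4.79 in WT against 3.88, 4.79 and 2.77 in TCKO, so that the genotypes touched at 4.79 CPM. The log2 fold change of -0.49 had a 95% interval of -1.05 to 0.08 and did not pass (edgeR adjusted p = 0.209). This interval comes close to the fold change of Cdkn2b, and a difference between both genes was not tested. Counts are per gene, and reads of p16Ink4a and p19Arf cannot be told apart. On the far side of Cdkn2a, 93390 bases away, the gene Mtap of methionine salvage had 100.03, 103 and 107 CPM in WT and 117, 117 and 111 CPM in TCKO and did not pass (edgeR adjusted p = 0.151).

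Cdkn2c (ENSMUSG00000028551.14, chr4:109660876-109667189, minus strand), the remaining INK4 gene of the 9, had 19.8, 19.1 and 19.1 CPM in WT and 19.6, 17.8 and 15.1 CPM in TCKO. TCKO_2 and TCKO_3 lay below the WT libraries and TCKO_1 among them. Its log2 fold change was -0.14 with a 95% interval of -0.43 to 0.14 (edgeR adjusted p = 0.470).

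Cdkn1a of the CIP/KIP family (ENSMUSG00000023067.14, chr17:29090976-29100727, plus strand) had 1104, 1078 and 1050 CPM in WT and 912, 938 and 1167 CPM in TCKO. TCKO_1 and TCKO_2 lay below all WT libraries and TCKO_3 above them. The log2 fold change was -0.10 ± 0.11 (95% interval -0.34 to 0.14, edgeR adjusted p = 0.558). With TCKO_3 left out it was -0.22 and passed (0.0439). An annotated transcript on the opposite strand, AC167363.2, overlaps Cdkn1a and has no row in the table, and since the use of strand in counting is not given, its reads cannot be told apart from those of Cdkn1a.

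Cdkn1b (ENSMUSG00000003031.14, chr6:134920401-134925513, plus strand) showed the opposite arrangement, with 35.2, 36.0 and 35.0 CPM in WT and 42.7, 41.3 and 33.7 CPM in TCKO. Here TCKO_1 and TCKO_2 lay above the WT libraries and TCKO_3 below. The log2 fold change was 0.15 ± 0.11 (95% interval -0.09 to 0.39, edgeR adjusted p = 0.371). The SD was 1.45% of the mean in WT and 12.4% in TCKO.

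Pmaip1, which encodes the BH3-only protein NOXA, an antagonist of the survival protein MCL1, was the only one of the 9 genes that rose. It had 36.9, 40.1 and 37.99 CPM in WT and 60.8, 60.8 and 63.1 CPM in TCKO, and the genotypes were far apart compared with the spread within each. The gene was 1.61-fold higher in TCKO (log2 fold change 0.68 ± 0.07, SE, n = 3 per genotype, edgeR adjusted p = 0.000861), with 0.66 within replicates 1 and 2 and 0.73 within replicate 3. The call was kept with each library left out (edgeR adjusted p up to 0.00810) and with replicates 1 and 2 summed (0.0421). Pmaip1 (ENSMUSG00000024521.8) lies on the plus strand of chromosome 18, from 66458533 to 66465565. Its neighbour Ccbe1, 155792 bases away, had 0.576, 1.42 and 6.59 CPM in WT and 13.7, 12.9 and 11.5 CPM in TCKO, and did not pass (log2 fold change 2.18 ± 0.68, edgeR adjusted p = 0.0734).

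Sesn2, the sestrin that restrains the growth kinase complex mTORC1 when leucine is scarce (ENSMUSG00000028893.8, chr4:132492032-132510501, minus strand), had 124, 112 and 113 CPM in WT and 90.0, 90.1 and 87.1 CPM in TCKO. The TCKO libraries were nearly equal and all lay below WT. The gene was 1.31-fold lower (log2 fold change -0.39 ± 0.07, SE, n = 3 per genotype, edgeR adjusted p = 0.00765), with -0.39 within replicates 1 and 2 and -0.38 within replicate 3. The call was kept with each library left out (edgeR adjusted p up to 0.0401) and lost with replicates 1 and 2 summed (0.134). Gm12981, an annotated RNA gene, overlaps Sesn2 and has no row in the table, so that reads of both cannot be told apart.

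Mdm2, the ubiquitin ligase of p53 (ENSMUSG00000020184.15, chr10:117688875-117710758, minus strand), varied most between TCKO libraries, with 295, 309 and 352 CPM in WT and 250.5, 259.7 and 426 CPM in TCKO. TCKO_1 and TCKO_2 lay below all WT libraries and TCKO_3 above them. The log2 fold change was -0.03 ± 0.21 (95% interval -0.53 to 0.47, edgeR adjusted p = 0.941). With TCKO_3 left out it was -0.32 and passed (0.0346), whereas it was 0.11 with TCKO_1 left out and 0.09 with TCKO_2 left out and did not pass. The adjacent gene Cpm, which encodes carboxypeptidase M and lies 1523 bases from Mdm2, had 0.230, 0.570 and 1.08 CPM in WT and 1.77, 1.598 and 2.21 CPM in TCKO and did not pass (edgeR adjusted p = 0.0542).

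Ccng1, which encodes cyclin G1 (ENSMUSG00000020326.7, chr11:40748552-40755311, minus strand), had 1011, 1050 and 969.8 CPM in WT and 902, 881 and 946 CPM in TCKO. All TCKO libraries lay below the WT libraries. The log2 fold change of -0.15 ± 0.08 did not pass (95% interval -0.32 to 0.02, edgeR adjusted p = 0.204). Of the 2 genes with a p53 match in a promoter window, Cdkn1a and Ccng1, neither passed, and their intervals include log2 falls down to -0.34 and -0.32. Pmaip1 was not searched, and p53 sites outside the windows were not looked for.

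**Figure D3:**
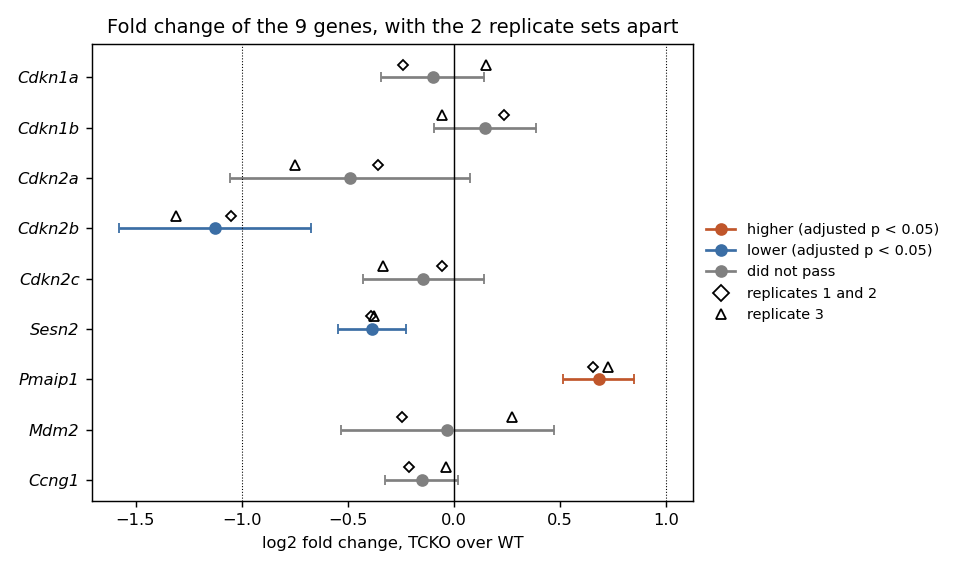
Log2 fold change (TCKO over WT) of each gene with its 95% interval, coloured by the edgeR call, beside the log2 difference within replicates 1 and 2 (diamonds) and within replicate 3 (triangles), with dotted lines at a fold of 2. Diamond and triangle lie on opposite sides of 0 for Cdkn1a, Cdkn1b and Mdm2 and on the same side for the other 6 genes.

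Replicate 3 stood apart from replicates 1 and 2 for several of these genes. Compared with the mean of TCKO_1 and TCKO_2, the log2 level in TCKO_3 differed by 0.74 for Mdm2 and 0.33 for Cdkn1a, and by -0.65 for Cdkn2a, -0.63 for Cdkn2b, -0.32 for Cdkn1b and -0.31 for Cdkn2c. The same value in WT was 0.22 for Mdm2, -0.06 for Cdkn1a, -0.23 for Cdkn2a and -0.37 for Cdkn2b. Within replicates 1 and 2 the log2 difference of genotypes was -0.24 for Cdkn1a and -0.24 for Mdm2, and within replicate 3 it was 0.15 and 0.28. The labels name no batch. Over all genes the root mean square log2 difference was 0.167 for WT_1 and WT_2 and 0.172 for TCKO_1 and TCKO_2, against 0.374 to 0.431 for pairs with replicate 3. The counts of replicates 1 and 2 still differed beyond counting noise (chi-square per degree of freedom 1.69 and 2.41), and they were kept as separate libraries.

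Total counts ran from 8119261 to 10657824 reads a library. The deleted genes did not all fall at the RNA level. Tet1 had 8.86, 9.30 and 11.03 CPM in WT and 6.53, 4.67 and 3.99 CPM in TCKO (log2 fold change -0.94 ± 0.22, edgeR adjusted p = 0.0207), Tet2 13.6, 15.2 and 15.3 CPM in WT and 14.2, 9.83 and 12.1 CPM in TCKO (-0.29 ± 0.16, 0.244), and Tet3 was higher in the libraries labelled TCKO, with 43.3, 46.3 and 41.6 CPM in WT and 66.4, 57.5 and 59.1 CPM in TCKO (0.48 ± 0.09, 0.00803). Counts per gene do not resolve the deleted exons and so do not check the deletion. Of 12 osteoblast markers 11 were listed, with a summed level of 41530 to 44694 CPM in WT and 21717 to 38043 CPM in TCKO, and the late markers Bglap2 and Phex averaged below 1 CPM. Of 9 tested, 5 fell and 1 rose (55.6% and 11.1%, against 8.9% and 9.44% of all genes), with a median log2 fold change of -0.87. All 12 chondrocyte markers fell (100%, against 8.9% of all genes), with a summed level of 6709 to 8836 CPM in WT and 794 to 1079 CPM in TCKO. The sum of 12 macrophage markers was 451 to 839 CPM in WT and 174 to 611 in TCKO. Only 1 of them passed as lower (8.33%, near the 8.9% of all genes), but all 12 had a negative log2 fold change, with a median of -0.89. Endothelial markers (7 of 9 listed) summed to 3.34 to 4.67 and 40.4 to 111 CPM, mostly from Kdr, with Pecam1 and Cdh5 below 1 CPM in all libraries. Only 2 of them were tested, and both rose (100%, against 9.44% of all genes), with a median log2 fold change of 4.34. Muscle markers (6 of 7 listed) summed to 9.21 to 26.1 and 25.02 to 64.3 CPM, fat cell markers (3 of 6 listed) to 23.4 to 30.3 and 15.6 to 16.5 CPM, and none of 5 erythroid markers had a row. The sums for osteoblasts, chondrocytes, endothelium and fat cells did not overlap between genotypes, while those for macrophages and muscle did. The part of any of these cells in the changes of the 9 genes was not tested. In such bulk cultures fewer cells of a type and less RNA per cell cannot be told apart.

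Genes that act together with the 9 genes were counted in lists drawn up by function, with earlier results of these data known. The shares of all genes set beside their counts are therefore a description and not a test. The kinases that INK4 proteins bind, with their cyclins, moved in both directions. Of 9 G1 cyclins and CDKs 6 rose and 1 fell (against 9.44% and 8.9% of all genes), with a median of 0.47. Cdk4 had 228, 229.8 and 211 CPM in WT and 293, 290.4 and 293 CPM in TCKO (log2 fold change 0.39 ± 0.07, edgeR adjusted p = 0.00582), and Cdk6 rose too (0.54 ± 0.10, 0.0102), as did Cdk2 (0.47 ± 0.10, 0.0160) and its cyclin gene Ccne2 (1.04 ± 0.18, 0.00666). The gene that fell was Ccnd1, the gene of cyclin D1, with 940.3, 905 and 543 CPM in WT and 191, 190.2 and 257 CPM in TCKO (-1.91 ± 0.24, edgeR adjusted p = 0.00294). Ccnd2 also lay below WT in every TCKO library, with 1889, 1894 and 1266 CPM in WT and 1187, 1173 and 1177 CPM in TCKO. It came just short of the threshold (-0.51 ± 0.15, edgeR adjusted p = 0.0509). In DESeq2, under the replicate block and with WT_3 left out, 2 of this list fell. The calls of Cdk4, Cdk6, Ccne2 and Ccnd1 were kept with each library left out and lost with replicates 1 and 2 summed (0.131, 0.134, 0.0971 and 0.0674 in the same order), and that of Cdk2 was also lost when leaving out WT_1 (0.0752), TCKO_1 (0.0508) or TCKO_2 (0.0508). Only 3 of this list rose when WT_1 or TCKO_2 was left out. The inhibitors outside the 9 genes did not pass, Cdkn1c (p57) with 9.44, 7.97 and 4.55 CPM in WT and 5.54, 4.42 and 4.32 CPM in TCKO and Cdkn2d (p19Ink4d) with 15.1, 13.3 and 18.2 CPM in WT and 14.2, 15.2 and 19.2 CPM in TCKO. Leaving out WT_3, Cdkn1c passed as lower (edgeR adjusted p = 0.0191).

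Of 12 proliferation markers 9 rose (75.0%, against 9.44% of all genes) and the others did not pass, with a median log2 fold change of 0.76. Mcm3 and Mcm2 of the replicative helicase rose (log2 fold change 0.72 ± 0.11 and 0.73 ± 0.13, edgeR adjusted p = 0.00394 and 0.00777), as did the cyclin A2 gene Ccna2 (0.81 ± 0.13, 0.00399) and Pcna, the sliding clamp of DNA synthesis (0.49 ± 0.09, 0.00912). The count was 11 in DESeq2 and under the replicate block, and 12 in limma-voom and with WT_3 left out. It was 6 when WT_1 or WT_2 was left out, and with replicates 1 and 2 summed no marker passed in edgeR (10 at an unadjusted p under 0.05). The median was 0.94 within replicates 1 and 2 and 0.43 within replicate 3.

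Of 6 genes listed for the turnover of p27, the product of Cdkn1b, 2 rose (33.3%, against 9.44% of all genes). None fell (against 8.9%), but at an unadjusted p under 0.05 in edgeR 2 were higher and 2 lower. With WT_3 or TCKO_3 left out, 1 gene of this list fell at an adjusted p under 0.05. Cks1b, the cofactor that brings p27 to the ubiquitin ligase, had 26.9, 30.8 and 34.5 CPM in WT and 57.7, 51.4 and 63.3 CPM in TCKO (log2 fold change 0.90 ± 0.12, edgeR adjusted p = 0.00186), and its call was kept with each library left out and with replicates 1 and 2 summed (0.0464). Skp2, the recognition subunit, rose by 0.60 ± 0.12 (edgeR adjusted p = 0.0110), a call lost when leaving out WT_1 (0.0567) or TCKO_1 (0.0524) and with replicates 1 and 2 summed (0.120). Of 13 genes of the RB and E2F family, the targets of these kinases, 1 fell (7.69%, near the 8.9% of all genes) and none rose (against 9.44%). At an unadjusted p under 0.05 in edgeR 6 were higher and 2 lower. At an adjusted p under 0.05 DESeq2 gave 1 higher and 0 lower. Rb1 was the gene that fell (log2 fold change -0.26 ± 0.07, edgeR adjusted p = 0.0437), and it did not pass in DESeq2 (0.143), with no filter (0.0528), with replicates 1 and 2 summed (0.307) or when leaving out WT_1 (0.121), WT_2 (0.153), TCKO_1 (0.143), TCKO_2 (0.127) or TCKO_3 (0.0521). Under the replicate block 3 of these genes rose and 2 fell, and with replicates 1 and 2 summed 0 rose and 0 fell (1 higher and 0 lower at an unadjusted p under 0.05 in edgeR).

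Of 15 tested regulators of the locus of Cdkn2a and Cdkn2b, 2 rose (13.3%, near the 9.44% of all genes) and none fell, and with TCKO_3 left out 3 rose and 2 fell. Ezh2, the methyltransferase of the Polycomb complex that represses this locus, had 20.9, 19.6 and 23.5 CPM in WT and 35.3, 38.6 and 40.0 CPM in TCKO (log2 fold change 0.83 ± 0.10, edgeR adjusted p = 0.00150). Kdm6b, a demethylase that removes the same mark, had 54.2, 52.8 and 45.7 CPM in WT and 73.4, 69.1 and 67.4 CPM in TCKO (0.46 ± 0.09, edgeR adjusted p = 0.0100). Both calls were kept with each library left out and lost with replicates 1 and 2 summed (0.0525 and 0.126).

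Trp53 itself had 124, 126 and 129 CPM in WT and 144, 136 and 135 CPM in TCKO. It did not pass, with a log2 fold change of 0.13 ± 0.06 (95% interval -0.01 to 0.28, edgeR adjusted p = 0.192). Mdm4, whose product restrains p53 together with MDM2, did not pass either (0.04 ± 0.09, edgeR adjusted p = 0.815). In the list of 11 tested regulators, Trp53 included, 1 rose and 1 fell (9.09% each way, near the 9.44% and 8.9% of all genes). Trp63, a relative of p53 known from epithelia, fell, with 40, 46 and 11 reads in WT and 3, 0 and 0 reads in TCKO (edgeR adjusted p = 0.0104), a call kept with each library left out and lost with replicates 1 and 2 summed (0.0933). Trp53bp1, a DNA repair factor that binds p53, was just past the threshold (log2 fold change 0.23 ± 0.07, edgeR adjusted p = 0.0498), and its call was lost in DESeq2 (0.103), in limma-voom (0.0525), with no filter (0.0582), with replicates 1 and 2 summed (0.277) and with any 1 library left out (0.0606 to 0.181).

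Of 30 further p53 target genes 26 had a negative log2 fold change, as did 6833 of all 13630 genes tested. Of these 30, 7 fell (23.3%, against 8.9% of all genes), 1 rose (3.33%, against 9.44%), and the median was -0.29. The number that fell changed strongly with the libraries used. It was 15 with TCKO_3 left out and 13 with WT_3 left out, 2 with WT_2 left out, 1 with WT_1, TCKO_1 or TCKO_2 left out or with replicates 1 and 2 summed, and 11 under the replicate block. The median was -0.40 within replicates 1 and 2 and -0.12 within replicate 3. Dram1, a lysosomal p53 target of autophagy, had 43.2, 47.4 and 45.5 CPM in WT and 23.5, 28.3 and 25.5 CPM in TCKO (log2 fold change -0.82 ± 0.10, edgeR adjusted p = 0.00123), and its call was kept with each library left out and with replicates 1 and 2 summed (0.0344). Polk, a polymerase of damage bypass (-0.43 ± 0.09, edgeR adjusted p = 0.0122), Rprm, a mediator of arrest in G2 (-1.06 ± 0.23, 0.0159), and Tap1, a peptide transporter of antigen presentation (-0.49 ± 0.11, 0.0206), fell as well. Their calls were lost with replicates 1 and 2 summed (0.180, 0.206 and 0.218) and, among others, when WT_1 was left out (0.0599, 0.0676 and 0.0733). The gene that rose was Plk2, a polo-like kinase, with 110.5, 106 and 197 CPM in WT and 305, 301 and 423 CPM in TCKO (1.32 ± 0.28, edgeR adjusted p = 0.0243), a call lost when leaving out WT_1 (0.0803), WT_2 (0.0736), TCKO_1 (0.0539), TCKO_2 (0.0522) or TCKO_3 (0.0675) and with replicates 1 and 2 summed (0.145).

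**Figure D4:**
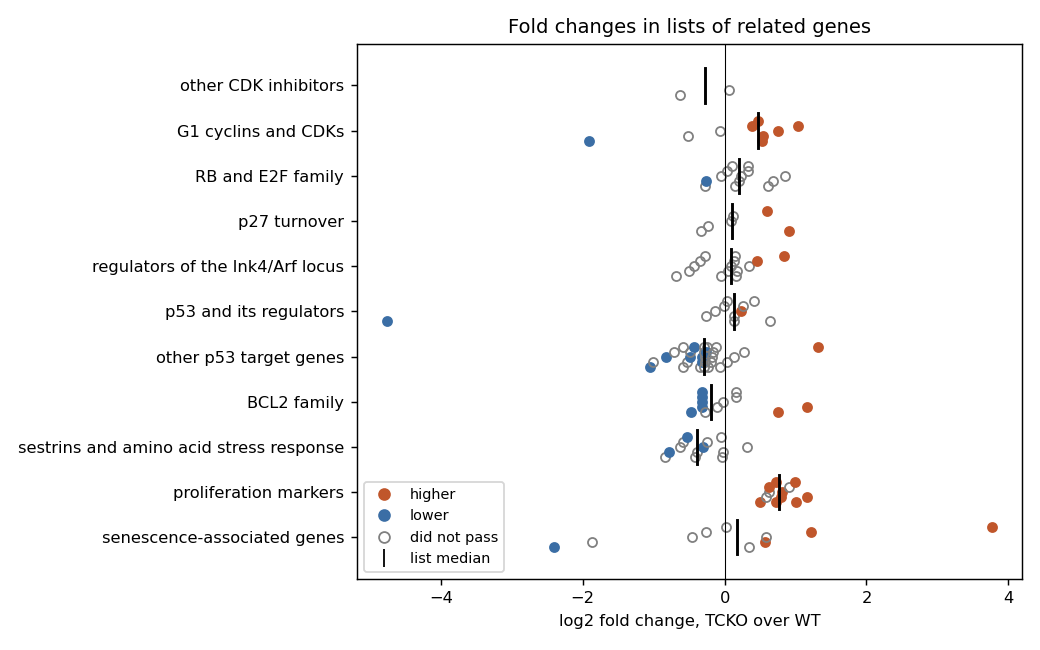
Log2 fold change (TCKO over WT) of the tested genes of 11 lists, 1 point a gene, filled where the edgeR adjusted p was under 0.05, with a vertical bar at the median of the list. The proliferation markers lie to the right of 0 with a median of 0.76, and most p53 target genes lie to the left with a median of -0.29.

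Pmaip1 belongs to the BCL2 family of apoptosis regulators, and of 12 other members tested 2 rose and 5 fell (16.7% and 41.7%, against 9.44% and 8.9% of all genes). Bcl2l11, which encodes the BH3-only protein BIM, had 8.75, 8.16 and 10.4 CPM in WT and 20.4, 20.9 and 19.8 CPM in TCKO (log2 fold change 1.16 ± 0.13, edgeR adjusted p = 0.00103), and its call was kept with each library left out and with replicates 1 and 2 summed (0.0488). Bok, which encodes a pore-forming member, rose by 0.75 ± 0.17 (edgeR adjusted p = 0.0186), a call lost when leaving out WT_1 (0.0810), WT_2 (0.0835) or TCKO_2 (0.0513) and with replicates 1 and 2 summed (0.155). Mcl1, which encodes the survival factor bound by NOXA, had 212, 210.3 and 194 CPM in WT and 159.7, 159 and 176 CPM in TCKO (-0.32 ± 0.07, edgeR adjusted p = 0.0204). Bid and the p53 target Bax, both promoters of apoptosis, fell as well (edgeR adjusted p = 0.0227 and 0.0355). Of the 5 falls, 0 passed when WT_1, WT_2, TCKO_1 or TCKO_2 was left out (for Mcl1 0.0880, 0.0898, 0.0914 and 0.0926) or with replicates 1 and 2 summed, where 2 members of the family were lower at an unadjusted p under 0.05 in edgeR. Bbc3, which encodes the p53 target PUMA, did not pass (-0.28 ± 0.12, edgeR adjusted p = 0.146), but did with WT_3 left out (0.0387).

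Sesn2 is induced by p53 and also through ATF4 when amino acids are short, and of 13 genes of that response and the other sestrins 3 fell (23.1%, against 8.9% of all genes), with a median of -0.40. Chac1, an enzyme of glutathione breakdown, had 57.4, 53.9 and 59.3 CPM in WT and 33.9, 36.9 and 28.9 CPM in TCKO (log2 fold change -0.78 ± 0.10, edgeR adjusted p = 0.00205), and the asparagine synthetase gene Asns had 224, 213 and 222 CPM in WT and 161, 159 and 137 CPM in TCKO (-0.53 ± 0.08, edgeR adjusted p = 0.00334). Both calls were kept with each library left out and lost with replicates 1 and 2 summed (0.0517 and 0.0841). Atf4 fell by a smaller amount (-0.30 ± 0.07, edgeR adjusted p = 0.0238), and did not pass when leaving out WT_1 (0.0703), WT_2 (0.0863), TCKO_1 (0.0639) or TCKO_2 (0.0764). The count was 5 with TCKO_3 left out and 0 with replicates 1 and 2 summed (3 at an unadjusted p under 0.05 in edgeR). The sestrin genes Sesn1 (-0.59 ± 0.25, edgeR adjusted p = 0.151) and Sesn3 (0.31 ± 0.40, 0.637) did not pass, although Sesn1 did under the replicate block (0.0188) and with WT_3 left out (0.0182), but not with replicates 1 and 2 summed (0.456).

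Genes used as signs of senescence, a lasting arrest often marked by Cdkn2a and Cdkn1a, moved in both directions, with 3 of 10 tested higher and 1 lower (against 9.44% and 8.9% of all genes). Under the replicate block 4 were higher and 2 lower, in limma-voom 2 and 1, and with replicates 1 and 2 summed 1 and 0. Lmnb1, the lamin B1 gene, known to be low in senescent cells, had 22.0, 22.3 and 30.6 CPM in WT and 56.9, 60.5 and 56.0 CPM in TCKO (log2 fold change 1.21 ± 0.13, edgeR adjusted p = 0.000894), and its call was kept with each library left out and with replicates 1 and 2 summed (0.0421). Igfbp5, which encodes a binding protein of insulin-like growth factors, fell (-2.41 ± 0.33, edgeR adjusted p = 0.00613), and Tgfb1, which encodes the ligand of the pathway known to induce Cdkn2b, rose (0.57 ± 0.10, 0.00704). Both were lost with replicates 1 and 2 summed (0.0678 and 0.101). The protease gene Mmp3 rose from 0.806, 0.664 and 1.32 to 20.3, 14.6 and 3.10 CPM (edgeR adjusted p = 0.0221), a call lost in limma-voom (0.157), with replicates 1 and 2 summed (0.168) and when leaving out WT_1 (0.0930), WT_2 (0.0995), WT_3 (0.0742) or TCKO_2 (0.0589).

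The genes whose pattern over the 6 libraries was most like that of a member were taken from 11112 genes with at least 5 CPM on average, by the Pearson correlation of log2 CPM, and this is a description over few libraries that share a genotype difference. For Cdkn2b they were Crip1, Txndc12 and Bcl11b (r = 0.999, 0.997 and 0.997), of which Bcl11b, a zinc finger factor, had a log2 fold change of -1.19 and Crip1 one of -0.36. For Pmaip1 they were Parm1, Gng11 and Ccdc85a (r = 0.999, 0.998 and 0.997), with log2 fold changes of 2.28 to 3.64, each larger than that of Pmaip1. For Sesn2 they were Gmds, Dhrs1 and Nxpe4 (r = 0.998, 0.997 and 0.996). Cdkn1a was most like Syde1, Bcl2l1 and Ctgf, with r from 0.990 to 0.992, and Mdm2 most like Gpn1, Arhgap6 and Sh3bp5, with r from 0.987 to 0.992, and none of these passed between genotypes. Cdkn1b was most like Ifit1, Dedd and Zc3h4, Cdkn2c most like Pld1, Map3k3 and Samd9l, and Ccng1 most like Arl13b, Gm7665 and Fchsd1.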

How the data were processed

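The deposited table holds raw counts of reads per gene symbol, which the authors obtained from alignments to GRCm38. HISAT2 is named in the submitters' notes and STAR in the published methods, whose data statement names another series, so that these methods are taken to hold here because design and protocol are the same, while the way of counting, strand included, was not given in the sources used here. Normalized means, fold changes and p-values of the authors in this table were not used. The smallest total of a listed gene is 10 reads, and before TMM scaling 1 CPM stands for 8.12 to 10.66 reads in a library. Gene positions and exon lengths are those of GENCODE M21 (GRCm38), and promoters those of RefSeq.

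Genotypes were compared with edgeR 4.0.16 in R 4.3.3 (filterByExpr, which kept 13630 genes and set aside 2825, TMM, robust glmQLFit with genotype as the only term, 2-sided glmQLFTest, Benjamini-Hochberg adjustment over all genes tested). A gene passed at an adjusted p under 0.05. The SE is the size of the log2 fold change over the square root of F. Alternatives were DESeq2 1.42.0, limma-voom (limma 3.58.1), median-of-ratios size factors, no filter, a replicate block, each library left out, and replicates 1 and 2 of a genotype summed. The tests were also run on simulated counts with all libraries drawn independently, so that a shared shift of replicate 3 was not covered.

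Libraries of both genotypes with the same number deviated together from their group means (r = 0.181, 0.184 and 0.321), but so did WT_2 with TCKO_1 (0.233) and WT_1 with TCKO_2 (0.169), so that the data set replicate 3 apart but do not pair replicates 1 and 2 by number. The labels state no pairing. The block by number was run as an alternative, and the main test has none. The members, the lists, the alternatives and the naming rule (all members, up to 4 genes a list that passed with the smallest adjusted p, partners of members, neighbours and the most similar genes) were chosen with earlier results of these data known. Ccnd2, Plk2, Sesn1 and Sesn3 were named outside this rule, after their values were seen. The cell markers Bglap2, Phex, Kdr, Pecam1 and Cdh5 were named for their levels and not by this rule. Bax, Bbc3 and Sesn1 stand in 2 lists.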

Additional observations from a re-analysis of the deposited data

How the results depend on the processing

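Cdkn2b, Sesn2 and Pmaip1 kept their direction under every alternative run, and Pmaip1 passed in all 13 fits. With replicates 1 and 2 summed, Cdkn2b (log2 fold change -1.14, edgeR adjusted p = 0.0936) and Sesn2 (-0.38, 0.134) did not pass, so that 0 of the 9 genes were lower (2 at an unadjusted p under 0.05), and over all genes 197 were higher and 156 lower, against 1287 and 1213. That fit has fewer libraries. Leaving out 1 library gave 2 to 4 lower members, 612 to 1702 higher and 578 to 1611 lower genes in all, and log2 fold changes of -0.22 to -0.032 for Cdkn1a and -0.32 to 0.11 for Mdm2. Of these fits, Cdkn1a and Mdm2 passed only without TCKO_3 (edgeR adjusted p = 0.0439 and 0.0346), and the cause was not tested. The replicate block changed no call of the 9 genes (edgeR adjusted p = 0.000200 for Cdkn2b, 0.00569 for Sesn2 and 0.000873 for Pmaip1), added 14 calls among the list genes and ended none there. Over all genes it gave 1729 higher and 1623 lower. Among list genes the summed fit ended 40 calls, DESeq2 ended 3 and added 7, limma-voom ended 3 and added 5, and the fit with no filter ended 2. Depth limits Cdkn2a, with 25 to 54 reads a library.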
